A study of Mus musculus with 20 samples.

Results

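The multidomain members of the BCL2 family set the threshold at which mitochondria release cytochrome c. The genes described here are the 4 survival genes Bcl2, Bcl2l1 (BCL-XL), Bcl2l2 (BCL-W) and Mcl1, and the 3 pore genes Bax, Bak1 and Bok. They were taken by name from a gene count table of 46603 rows, and all 7 were in it. The survival proteins sit on mitochondrial and endoplasmic reticulum membranes and hold BAX and BAK inactive. BH3-only proteins such as BIM, PUMA and NOXA bind the survival proteins or activate BAX and BAK directly, and active BAX and BAK open pores in the outer mitochondrial membrane. BCL2 is known as the survival factor of resting lymphocytes, and BCL-XL as one that is induced when T cells are stimulated.

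The study sequenced RNA from mouse cell cultures as 20 libraries in 10 groups of 2. The melanoma line B16F10, grown with puromycin, was either control (Ctrl) or knocked out for Ccdc101, which the count table lists under its present symbol Sgf29, and each genotype received DMSO vehicle or thapsigargin (TG) at 50 ng/mL for 8 h. TG blocks the SERCA calcium pumps, of which Atp2a2 encodes a widely expressed one, and empties the calcium store of the endoplasmic reticulum. The T cells were OT-I/Cas9 CD8 cells, which carry a transgenic receptor for an ovalbumin peptide and the Cas9 nuclease, and all of them were kept in IL-2, IL-7, IL-15, betamercaptoethanol and puromycin. Control T cells were resting or activated on plate-bound anti-CD3 (2.5 µg/mL, 24 h), each with DMSO or TG at the same dose and time as the melanoma cells. T cells knocked out for Atp2a2 received DMSO only and were labelled resting or activated. The labels do not say whether the knockouts were clones or mixed populations, nor whether the 2 libraries of a group came from separate cultures, so p-values measure the spread between these libraries, which may be technical. As these are bulk cultures, fewer cells of a kind and less RNA per cell cannot be told apart.

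Total counts ran from 9985311 to 17462770 per library. Levels are given as counts scaled to library size (CPM). The summed level of 7 CD8 T cell markers was 3574 to 8656 CPM in the T cell libraries and 2.68 to 7.56 CPM in the melanoma libraries, and that of 7 melanocyte markers was 10322 to 16152 CPM in melanoma and at most 7.81 CPM in T cells. Sgf29 was 27.9 and 26.4 CPM in control melanoma and 18.2 and 17.4 CPM in the knockout with vehicle. Atp2a2 was 683 and 704 CPM in activated control T cells and 453 and 452 CPM in the activated knockout. Ddit3 (CHOP), a transcription factor induced by endoplasmic reticulum stress, was higher with TG in all 4 comparisons, for example 29.2 and 34.7 CPM with vehicle and 848 and 826 CPM with TG in control melanoma. The 2 libraries labelled resting Atp2a2 knockout go against that label. Their 6 T cell activation markers summed to 15735 and 15846 CPM, near the 14367 to 14672 CPM of activated control cells and far from the 2814 to 2894 CPM of resting control cells. Across 14824 genes their median absolute log2 difference was 0.0829 from the activated knockout, 0.172 from activated control cells and 0.484 from resting control cells. They are called the libraries labelled resting knockout below, and comparisons among the other T cell groups gave the same 49 member values, in direction and call, with these libraries left out.

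CPM are scaled by TMM over all 20 libraries, with SD over 2 libraries. Changes are log2 changes from edgeR's quasi-likelihood test with their standard error (SE), and a gene is called where its Benjamini-Hochberg adjusted p over all genes tested lies under 0.05. Bok had too few counts to be tested within melanoma. Each of the 7 genes was higher in resting T cells than in control melanoma, both with vehicle, in a comparison where 83.7% of all genes were called (40.8% higher and 43.0% lower in melanoma). The gap ran from a log2 change of -0.39 (SE 0.041) for Bak1 to -4.85 (SE 0.045) for Bcl2. Bok was the weakest of the 7 calls (log2 change -1.49, SE 0.71, adjusted p = 0.049, edgeR) and was not called by DESeq2, under another scaling, without the count filter, or without the melanoma vehicle library 2 or either resting T cell library. It passed the filter on low counts only through the TG-treated resting T cells, so that it is no independent addition to the 7. Against activated T cells 5 of the 7 were lower in melanoma and Bak1 was higher (0.15, SE 0.042), where 82.7% of all genes were called (39.0% higher and 43.7% lower). There Bok had a change of -1.17 (SE 0.70) and was called, at -2.48, without the melanoma vehicle library 1.

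**Figure D1:**
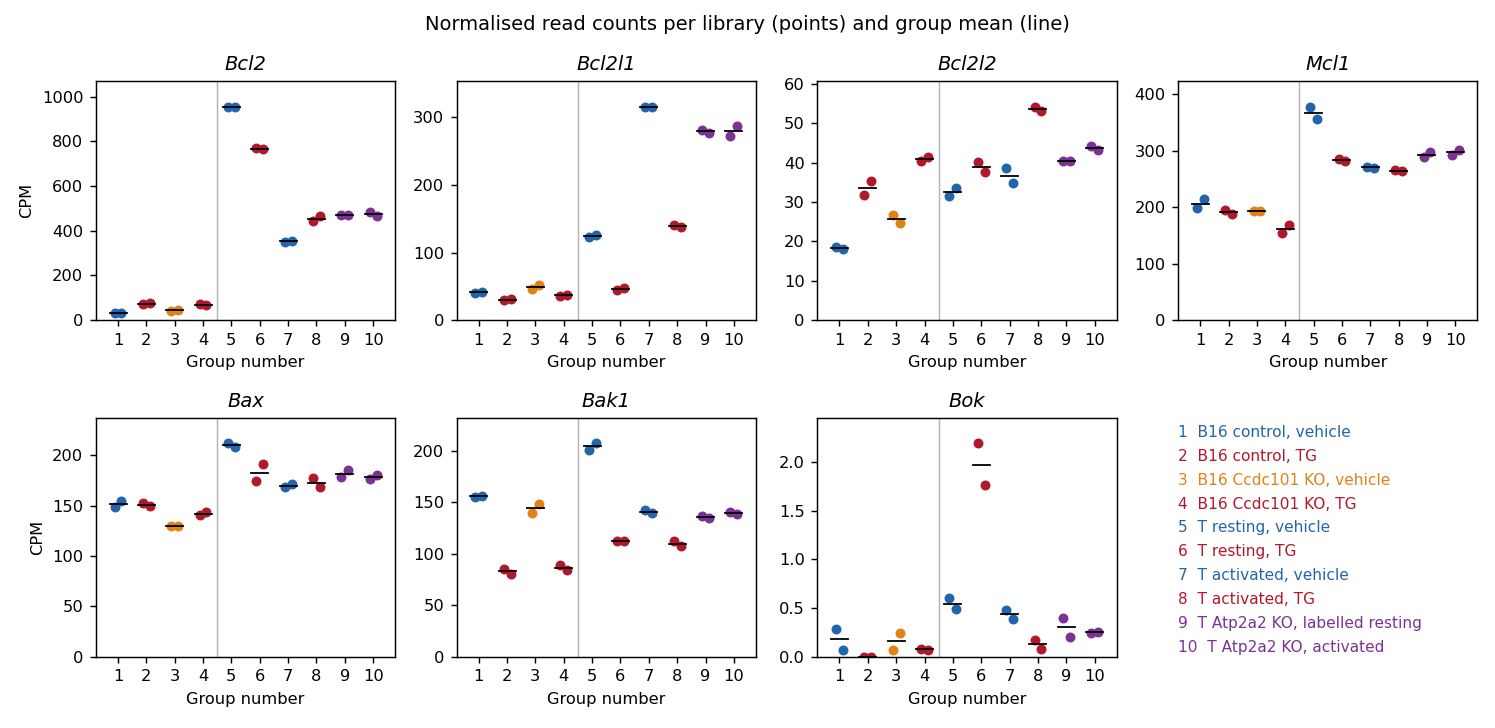
CPM of each gene (y axes, from 0, one scale per gene) in the 10 numbered groups (x axes); points are the 2 libraries of a group, lines their mean, and the grey line parts melanoma from T cells. Bcl2 lay between 349 and 956 CPM in T cells and between 32.6 and 76.1 CPM in melanoma, while Bax kept within 130 to 212 CPM throughout.

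The genes differed widely in how far their levels ranged over the groups. The ratio of the highest to the lowest group mean was 28.9 for Bcl2 and 10.5 for Bcl2l1, against 2.92 for Bcl2l2, 2.46 for Bak1, 2.29 for Mcl1 and 1.61 for Bax. Bcl2 was ordered from resting T cells (955 ± 1.1 CPM, n = 2) through TG-treated resting cells (768 ± 3.1), the activated knockout (477 ± 12), the libraries labelled resting knockout (471 ± 1.3), TG-treated activated cells (453 ± 15) and activated cells (352 ± 3.6) to the 4 melanoma groups. Only the 2 knockout groups overlapped among its neighbours. Bcl2l1 was ordered otherwise, with activated T cells first (315 ± 0.63 CPM), both knockout groups next (280 ± 11 and 280 ± 3.3, overlapping), then TG-treated activated cells (139 ± 2.3) and resting cells (125 ± 1.6). Its TG-treated resting T cells, at 45.8 ± 2.3 CPM, fell among the melanoma groups, between the Ccdc101 knockout with vehicle (49.1 ± 4.0, overlapping) and control melanoma with vehicle (41.0 ± 1.3).

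**Figure D2:**
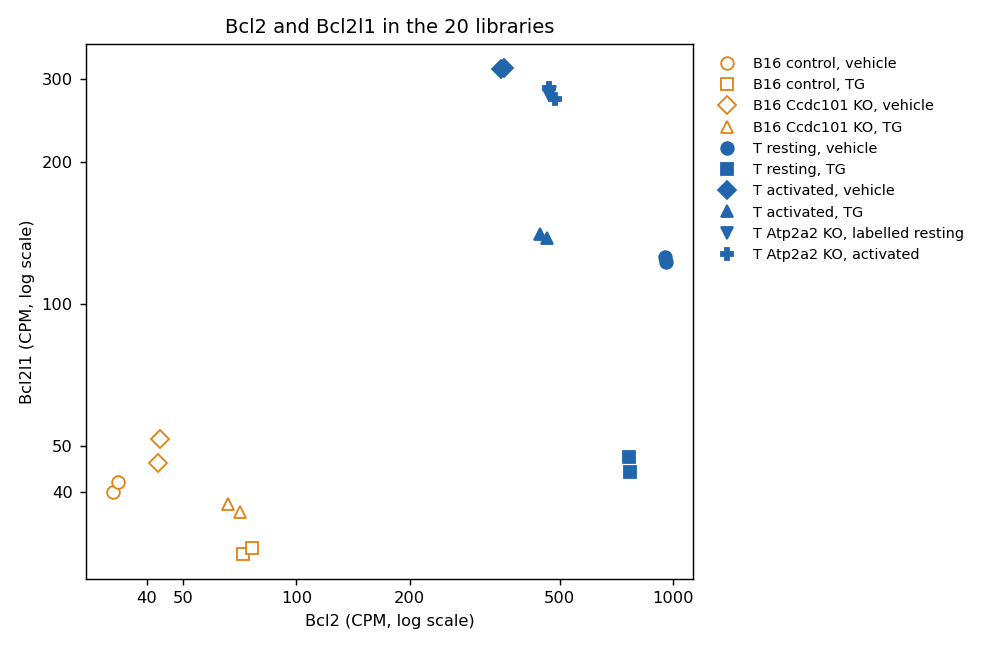
CPM of Bcl2 (x axis) and Bcl2l1 (y axis), both on log scales, in the 20 libraries, with open symbols for melanoma and filled symbols for T cells. Resting T cells with vehicle lie farthest right, at 954 and 956 CPM of Bcl2, activated cells lie at 315 and 316 CPM of Bcl2l1, and TG moved both T cell states down on the y axis.

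To compare levels between genes, CPM were divided by the length of each gene's merged exons in kilobases, and the 4 survival genes were summed. Mcl1, whose protein turns over within a short time, made up the largest share in melanoma, at 78.3% ± 0.64 (SD, n = 2) in control cells with vehicle, with 11.6% ± 0.17 from Bcl2l1, 5.34% ± 0.35 from Bcl2l2 and 4.69% ± 0.13 from Bcl2. In resting T cells Mcl1 (43.6% ± 1.1) and Bcl2 (42.4% ± 0.61) had near-equal shares, both being 42.8% in library 2. In activated T cells the shares were 40.7% ± 0.080 for Mcl1, 35.3% ± 0.14 for Bcl2l1 and 19.7% ± 0.24 for Bcl2. TG took Bcl2l1 to 17.9% ± 0.38 and Bcl2 to 29.3% ± 0.84 in activated cells. The summed per-length level itself was 246 ± 3.8 CPM per kb in resting and 195 ± 0.38 in activated T cells, and 77.0 ± 3.7 in control melanoma. These shares depend on the length used: with each gene's longest transcript Bcl2l1 had 47.1% and Mcl1 30.4% in activated T cells, which reverses their order, Bcl2 (44.7%) stood above Mcl1 (36.1%) in resting T cells, and in control melanoma Bcl2l1 had 18.7%.

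**Figure D3:**
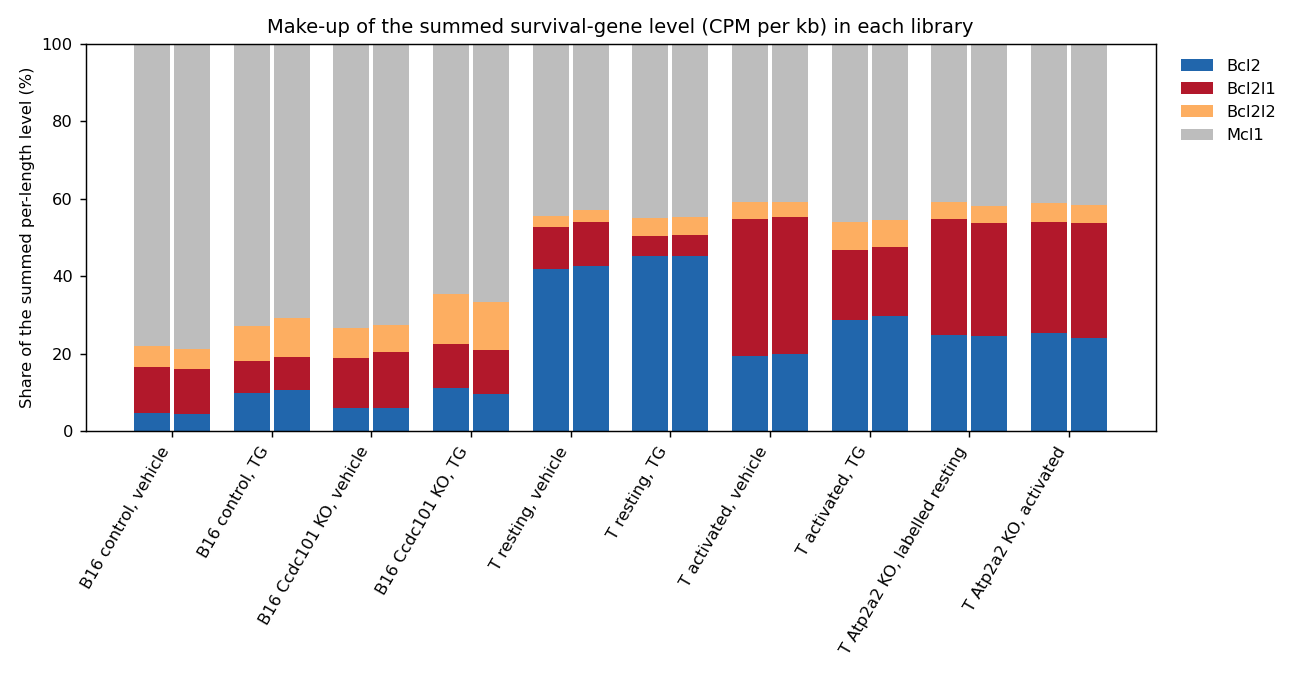
Share (%) of each survival gene in the summed CPM per kb of merged exon, 1 stacked bar per library, from 0 to 100%. Mcl1 takes 64.6% or more of every melanoma bar, and the Bcl2l1 part widens from 10.8% and 11.3% in resting to 35.2% and 35.4% in activated T cells.

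Gene counts join all transcripts of a gene, so the long and short splice forms of Bcl2l1 and Mcl1, whose proteins act in opposite directions, are not separated. On GRCm38 Bcl2 spans chr1:106538178-106714274 (minus strand), Bcl2l1 chr2:152780668-152831728 (minus), Bcl2l2 chr14:54883377-54888234 (plus), Mcl1 chr3:95658788-95663176 (plus), Bax chr7:45461697-45466898 (minus), Bak1 chr17:27019810-27029009 (minus) and Bok chr1:93685660-93695764 (plus). Exons of 4 of the genes overlap another annotated gene. The overlapping D630008O14Rik (antisense to Bcl2) had at most 0.463 CPM, Gm20521 (same strand as Bcl2l2) at most 0.0815 CPM and Ggnbp1 (antisense to Bak1) at most 2.67 CPM. Gm45808, which shares 192 bases of exon with Bax, has no row in the table. These overlaps cover 6.09% of the exon bases of Bcl2, 13.3% of Bcl2l2, 18.2% of Bak1 and 12.2% of Bax. How reads in shared stretches were counted is not given, so low levels of the overlapping genes do not exclude lost reads of the members.

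The 250 bases before the RefSeq start (GRCm38.p6) are shown for Bcl2 and Bcl2l1, which changed in opposite directions with T cell activation and with TG in melanoma and activated T cells, and for Mcl1, the largest part of the melanoma survival level. Capitals mark matches on either strand to a cAMP response element core (TGACGT), an E-box (CACGTG), a GC box (GGGCGG), an NF-kB core (GGGA and CC spaced by 4 bases), an ATF4 and C/EBP composite site (TGATGNAA) or an endoplasmic reticulum stress element (CCAAT and CCACG spaced by 9 bases), and none of the marked matches overlap each other.
Bcl2 (chr1:106714291-106714540, minus strand): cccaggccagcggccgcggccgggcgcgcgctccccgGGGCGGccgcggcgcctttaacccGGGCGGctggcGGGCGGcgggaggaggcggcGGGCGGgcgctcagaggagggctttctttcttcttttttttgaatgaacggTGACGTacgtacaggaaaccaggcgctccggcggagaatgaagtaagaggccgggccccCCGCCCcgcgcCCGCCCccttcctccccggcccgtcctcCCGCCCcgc
Bcl2l1 (chr2:152831729-152831978, minus strand): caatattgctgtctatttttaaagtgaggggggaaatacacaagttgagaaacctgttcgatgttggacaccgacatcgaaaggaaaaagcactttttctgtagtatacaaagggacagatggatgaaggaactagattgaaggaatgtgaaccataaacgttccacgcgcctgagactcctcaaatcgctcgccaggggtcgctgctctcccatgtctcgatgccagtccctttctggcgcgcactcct
Mcl1 (chr3:95658471-95658720, plus strand): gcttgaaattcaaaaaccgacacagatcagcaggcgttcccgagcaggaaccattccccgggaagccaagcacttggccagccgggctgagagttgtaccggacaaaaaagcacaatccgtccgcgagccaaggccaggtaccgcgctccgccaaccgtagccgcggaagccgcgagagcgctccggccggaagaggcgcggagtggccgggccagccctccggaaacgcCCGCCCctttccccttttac
The Bcl2 window held 7 GC boxes and 1 cAMP response element core and was 74.8% G or C. The Mcl1 window held 1 GC box at 64.4% G or C. None of the marked motifs was in this Bcl2l1 window, which was 47.6% G or C, nor in the windows of the 2 other starts that RefSeq gives for the gene. Over 32851 such mouse windows, 32.7% held a GC box, 6.47% the cAMP response element core, 6.02% the E-box, 17.6% the NF-kB core, 3.45% the composite site and 0.113% the stress element. The short NFAT core GGAAA, left in lower case, occurred in 55.6% of all windows, with 1 match for Bcl2, 2 for this Bcl2l1 window and 2 for Mcl1. A match describes these letters and is not a measured binding site.

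In control melanoma TG raised Bcl2 and Bcl2l2 and lowered Bak1, Bcl2l1 and, slightly, Mcl1, so that 5 of the 6 tested members were called where 71.8% of all genes were (35.7% higher and 36.1% lower). Bcl2 was 32.6 and 33.5 CPM with vehicle and 72.2 and 76.1 CPM with TG, a 2.26-fold rise (log2 change 1.17, SE 0.062, adjusted p = 1.3e-20). Bcl2l2 was 18.6 and 18.1 CPM with vehicle and 31.7 and 35.2 CPM with TG (0.87, SE 0.084). For both survival genes the TG libraries lay above both vehicle libraries, but the share of all genes that did so was not counted. Bcl2l1 was 40.1 and 42.0 CPM with vehicle and 29.5 and 30.5 CPM with TG (-0.44, SE 0.074). Bak1, one of the 2 main pore proteins, was 155 and 156 CPM with vehicle and 85.5 and 80.7 CPM with TG (-0.90, SE 0.047, adjusted p = 1.3e-20). Bax, the other, was 149 and 155 CPM with vehicle and 153 and 150 CPM with TG, with a log2 change of 0.00 and a 95% interval of -0.09 to 0.08. The pore genes thus moved apart: Bax made up 59.9% ± 0.70 of the summed per-length pore level with vehicle and 73.5% ± 0.50 with TG. These shares also depend on the length used, being 67.9% and 79.8% with each gene's longest transcript. Mcl1 had a log2 change of -0.10 (adjusted p = 0.048), which was not called by DESeq2, under 3 other settings, or without the vehicle library 2 (-0.02) or the TG library 2 (-0.07). The summed melanocyte markers were 15934 to 16152 CPM with vehicle and 13537 to 13544 CPM with TG, and their part in these changes was not tested.

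In the Ccdc101 knockout TG called all 6 tested members, 3 higher and 3 lower, where 70.3% of all genes were called (34.1% higher and 36.3% lower). Bcl2 was 42.8 and 43.4 CPM with vehicle and 70.8 and 65.7 CPM with TG (0.65, SE 0.061), a smaller rise than in control melanoma (difference -0.52, SE 0.088, adjusted p = 3.1e-05). Bcl2l2 rose by 0.66 (SE 0.076), and Bcl2l1, Mcl1 and Bak1 fell by 0.41 (SE 0.069), 0.28 (SE 0.044) and 0.74 (SE 0.047) on the log2 scale. Bax was 130 and 130 CPM with vehicle and 141 and 144 CPM with TG (0.13, SE 0.043), a call lost without the knockout TG library 2 (0.11). Bcl2 and Mcl1 were the 2 members called for the difference between genotypes, where 13.1% of all genes were (7.16% higher and 5.95% lower). The Mcl1 difference (-0.18, SE 0.062, adjusted p = 0.049) was not called by DESeq2, under another scaling, without the count filter, or without 6 of the 8 melanoma libraries, left out singly (-0.11 to -0.20): every library but the control vehicle library 2 and the knockout TG library 2. Bak1, not called here (0.16), was called without the count filter (0.21) and without the knockout vehicle library 2 (0.21).

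Between genotypes with vehicle, the knockout had more Bcl2 (42.8 and 43.4 against 32.6 and 33.5 CPM, log2 change 0.40, SE 0.067), Bcl2l2 (0.50, SE 0.086) and Bcl2l1 (0.28, SE 0.065) and less Bax (-0.21, SE 0.042). These were 4 calls of 6, where 25.7% of all genes were called (12.4% higher and 13.3% lower). All 3 survival genes other than Mcl1 were thus higher with the knockout, by 1.21-fold to 1.42-fold. The Bcl2l1 call was lost with DESeq2 (0.26), without the control library 1 (0.22) and without the knockout library 2 (0.18). Mcl1 and Bak1, not called here (-0.07 and -0.10), were called without the control library 1 (-0.15) and without the knockout library 2 (-0.16) respectively, Bak1 also under another scaling (-0.11) and in the fit of all 20 libraries (-0.12). With TG, Bcl2l1 (0.31, SE 0.078) and Bcl2l2 (0.29, SE 0.075) were higher and Mcl1 lower (-0.25, SE 0.045) in the knockout, 3 of 6 where 31.5% of all genes were called (16.6% higher, the rest of them lower). Bcl2l2 was not called there by DESeq2 (0.29) or without the control TG library 1 (0.23). Bcl2, whose TG rise was smaller in the knockout, was not called between genotypes with TG (-0.12, SE 0.057, adjusted p = 0.11, edgeR). Its TG-treated group means were 74.2 CPM in control and 68.2 CPM in knockout cells.

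Activation with vehicle lowered Bcl2 and raised Bcl2l1 in the T cells. Bcl2 was 956 and 954 CPM in resting cells and 349 and 355 CPM in activated cells, so that it fell by 61.7% (log2 change -1.38, SE 0.035, adjusted p = 1.6e-39). Bcl2l1 was 123 and 126 CPM in resting cells and 315 and 316 CPM in activated cells, a 2.63-fold rise (1.40, SE 0.041, adjusted p = 5.2e-36). For both genes the 2 states lay far apart relative to their libraries. Mcl1 was 378 and 356 CPM resting and 272 and 270 CPM activated (-0.38, SE 0.037). Bak1 and Bax fell as well, Bak1 by 0.49 (SE 0.041) and Bax by 0.25 (SE 0.042) on the log2 scale. In all, 6 of 7 members were called where 74.4% of all genes were (35.3% higher and 39.1% lower), and 4 of the 6 were lower. Bcl2l2 was among the higher ones (0.24, SE 0.075), a call lost without the resting library 1 (0.19) or the activated library 1 (0.16). Bok, at 5 to 8 counts in each of these 4 libraries, was not called (-0.26, SE 0.58).

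In resting T cells TG changed all 7 members, where 69.2% of all genes were called (34.1% higher and 35.2% lower). Bcl2l1 was 123 and 126 CPM with vehicle and 44.2 and 47.5 CPM with TG, so that it fell by 63.6% (-1.46, SE 0.053, adjusted p = 1.1e-31). Bak1 was 201 and 207 CPM with vehicle and 112 and 112 CPM with TG (-0.87, SE 0.043). Bcl2 was 956 and 954 CPM with vehicle and 770 and 766 CPM with TG (-0.33, SE 0.034). The changes of 3 others were smaller: Mcl1 fell by 0.39 (SE 0.038), Bax fell by 0.21 (SE 0.043) and Bcl2l2 rose by 0.25 (SE 0.077). The Bcl2l2 call was lost without the vehicle library 1 (0.20). Bok, a BAX relative linked to endoplasmic reticulum membranes, had 7 and 5 counts with vehicle and 27 and 19 counts with TG (1.82, SE 0.44, adjusted p = 0.00025). It passed the filter on low counts only through this TG group, so that it is no independent addition to the count. The summed activation markers were 2814 to 2894 CPM with vehicle and 6653 to 6661 CPM with TG, and their part in these changes was not tested.

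In activated T cells TG again lowered Bcl2l1 and Bak1 and raised Bcl2l2, and here it raised Bcl2. Bcl2l1 was 315 and 316 CPM with vehicle and 141 and 138 CPM with TG, so that it fell by 56.5% (-1.20, SE 0.040, adjusted p = 5.0e-33). Bcl2 was 349 and 355 CPM with vehicle and 443 and 464 CPM with TG (0.34, SE 0.035, adjusted p = 9.0e-13). Bcl2l2 was 38.5 and 34.8 CPM with vehicle and 54.2 and 53.0 CPM with TG (0.52, SE 0.066). Bak1 was 142 and 139 CPM with vehicle and 112 and 107 CPM with TG (-0.38, SE 0.044). None of these 4 pairs of groups overlapped, but the share of all genes without overlap was not counted. The 4 calls of 7 stood beside 65.0% of all genes called (32.6% higher and 32.4% lower). The 95% intervals of the members not called were -0.13 to 0.02 for Mcl1 and -0.08 to 0.09 for Bax, and Mcl1 was called without the count filter (-0.14). Bok had 13 counts with vehicle and 3 with TG over the group, a ratio of vehicle to TG of 3.49 with a 95% counting interval of 0.959 to 19.1, and was not called.

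**Figure D4:**
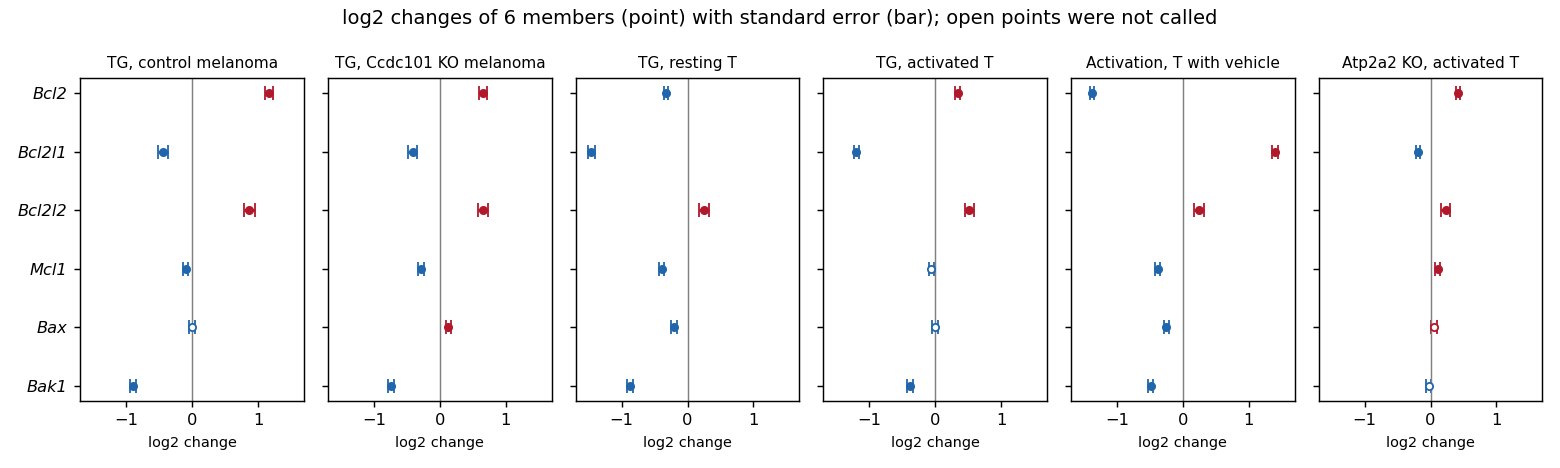
log2 change (x axes, point) with SE (bar) for 6 genes (y axis) in 6 comparisons, in red where positive and blue where negative, with open points for genes not called. Bcl2l1 and Bak1 lie left of 0 and Bcl2l2 right of 0 in all 4 TG panels, and Bcl2 changes side between resting and activated T cells.

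The test of the difference between the TG changes of activated and resting T cells called all 7 members, where 51.9% of all genes were called (26.7% higher and 25.2% lower). Bcl2 differed most among the well-counted members (0.67, SE 0.049, adjusted p = 1.0e-17), as its change was negative in resting and positive in activated cells. The difference was also positive for Bak1 (0.49, SE 0.062), Mcl1 (0.33, SE 0.053), Bcl2l2 (0.27, SE 0.10), Bcl2l1 (0.26, SE 0.068) and Bax (0.22, SE 0.061) in activated against resting cells. Bok had the opposite sign (-3.56, SE 0.91), but it was tested only because the TG-treated resting group carried it past the filter on low counts, and 6 of 6 members were called without it. Without the resting TG library 1 the calls of Bcl2l1 (0.14), Bcl2l2 (0.26) and Bax (0.09) were lost, and 4 of 7 members were called. Bcl2l2 was also lost without the resting TG library 2 (0.17), the resting vehicle library 2 (0.23) or the activated vehicle library 2 (0.21), and both Bcl2l2 (0.25) and Bax (0.19) with DESeq2 and without the count filter (0.19 and 0.14).

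Activation in the presence of TG moved Bcl2 and Bcl2l1 in the same directions as with vehicle, with other sizes. Bcl2l1 rose by 1.65 (SE 0.052) and Bcl2 fell by 0.71 (SE 0.035) on the log2 scale. Bcl2l2 rose by 0.51 (SE 0.069). Bok was 46 counts in the TG-treated resting group and 3 counts in the TG-treated activated group, a ratio of 15.8 with a counting interval of 5.07 to 79.3. These were 4 calls of 7, where 63.8% of all genes were called (32.0% higher and 31.9% lower), or 3 of 6 without Bok, which passed the filter only through the TG-treated resting group. Mcl1, Bax and Bak1 had log2 changes of -0.06, -0.03 and 0.00 and were not called. Mcl1 was called in the fit of all 20 libraries (-0.10), and the sign of Bax turned without the resting TG library 2 (0.03) or the activated TG library 2 (0.02).

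The TG changes of control melanoma were also tested against those of T cells. Against resting cells 6 of 7 members differed, where 47.4% of all genes did (23.6% higher and 23.8% lower), with Bcl2 (1.48, SE 0.064) and Bcl2l1 (1.00, SE 0.089) more positive in melanoma. Bak1 did not pass this test (-0.04, 95% interval -0.17 to 0.08): its TG changes were -0.90 in melanoma and -0.87 in resting T cells. Bcl2l2 (0.61, SE 0.11), Mcl1 (0.27, SE 0.057) and Bax (0.19, SE 0.060) were more positive in melanoma. The Bax call was lost with the compared groups alone (0.12), without the melanoma TG library 2 (0.16) and without the resting TG library 1 (0.13). The Bok value (-6.17, SE 1.8) rests on 0 counts in the TG-treated melanoma group and depends on the fitting of zeros, and Bok passed the filter only through the TG-treated resting T cells, 1 side of this difference. Without it 5 of 6 members differed. It was not called without the melanoma vehicle library 1 (-4.83). Against activated cells 4 of 7 differed, where 43.4% of all genes did (21.6% higher and 21.8% lower): Bcl2 (0.80, SE 0.064), Bcl2l1 (0.73, SE 0.081) and Bcl2l2 (0.33, SE 0.11) were more positive in melanoma and Bak1 (-0.54, SE 0.065) more negative. The Bcl2l2 difference was not called by DESeq2 (0.32) or without the melanoma TG library 2 (0.21) or the activated vehicle library 1 (0.24). Bok had 5 and 1 counts in the vehicle libraries of control melanoma and 0 counts in the TG group, which allows up to 0.135 CPM (a floor of 3 counts for the summed group). As the second vehicle library had 0.0705 CPM, a difference was not detectable at this depth.

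In activated T cells the Atp2a2 knockout raised Bcl2 and lowered Bcl2l1, Bcl2 being 349 and 355 CPM in control and 486 and 468 CPM in knockout cells (0.42, SE 0.035, adjusted p = 5.3e-15). Bcl2l1 was 315 and 316 CPM in control and 272 and 287 CPM in knockout cells (-0.19, SE 0.037, adjusted p = 2.6e-05). Bcl2l2 (0.23, SE 0.067) and Mcl1 (0.11, SE 0.037) were higher, which made 4 calls of 7 where 37.1% of all genes were called (17.5% higher and 19.6% lower). Bax and Bak1 were not called, with 95% intervals of -0.03 to 0.14 and -0.12 to 0.05. Leaving out any 1 of the 4 libraries left 2 or 3 calls. The Bcl2l2 call was lost without the control library 2 (0.16) or the knockout library 1 (0.21), and the Mcl1 call without either control library (0.11 and 0.11) or the knockout library 2 (0.08). Both were lost with DESeq2 (0.22 and 0.10), and Mcl1 without the count filter (0.07). The 7 melanocyte markers summed to 5.21 to 7.81 CPM over the control T cell libraries and to 0.312 to 1.34 CPM over both knockout groups, Tyrp1 and Dct being at 0 in the activated knockout. In this comparison 2 of the 4 tested markers were called lower, and their part in the member changes was not tested.

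TG and the knockout were compared directly in activated cells. The Bcl2 level was 443 and 464 CPM with TG and 486 and 468 CPM in the knockout, a difference that was not called (-0.08, 95% interval -0.15 to -0.01, adjusted p = 0.057) but was called under another scaling (-0.09), without the count filter (-0.11), with a stricter one (-0.08), and without the TG library 2 (-0.11) or the knockout library 2 (-0.09). Bcl2l1 was 141 and 138 CPM with TG and 272 and 287 CPM in the knockout (-1.01, SE 0.041, adjusted p = 4.4e-29). Bak1 was lower with TG (-0.35, SE 0.044), as was Mcl1 (-0.17, SE 0.038), and Bcl2l2 was higher (0.29, SE 0.065). Thus 4 of 7 members differed where 60.5% of all genes did (30.5% higher and 30.0% lower). TG lasted 8 h while the knockout is a lasting genetic change with 453 and 452 CPM of Atp2a2 RNA still present, so that dose and time are not matched.

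The libraries labelled resting knockout had member levels near those of the activated knockout, and were not tested against activated control cells. Against the activated knockout 0 of 7 members were called by edgeR, 0 had an unadjusted p under 0.05 and 0 were called by DESeq2, where 0.588% of all genes were called by edgeR (0.469% higher and 0.119% lower). Bcl2 was 472 and 470 CPM in them and 486 and 468 CPM in the activated knockout, with a 95% interval of the log2 difference of -0.07 to 0.07. Against resting control cells 6 of 7 were called, where 69.6% of all genes were (33.7% higher and 35.9% lower), among them Bcl2 (-0.96, SE 0.035) and Bcl2l1 (1.22, SE 0.043). The Bax call (-0.15, SE 0.044) was lost without library 1 of the libraries labelled resting knockout (-0.11). No change of the resting state by the knockout is read from these libraries.

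BH3-only genes, the inputs that the survival proteins hold in check, were followed as a list of 8. Bcl2l11 (BIM) was 206 and 206 CPM in resting T cells and 24.0 and 24.5 CPM in activated cells (log2 change -3.03, SE 0.055). It was one of 4 of 7 tested BH3-only genes that fell with activation, beside Bmf (-2.94, SE 0.22) and Bbc3 (PUMA, -1.75, SE 0.14), where 39.1% of all genes fell and 74.4% were called. The list's median log2 change was -0.82 and that of all genes tested -0.04. In activated cells TG raised Bcl2l11 to 60.2 and 59.9 CPM (1.29, SE 0.065), Bbc3 from a mean of 11.4 to 28.4 CPM (1.27, SE 0.15) and Bmf (1.81, SE 0.26), and lowered Bid (-0.85, SE 0.11). The Atp2a2 knockout had Bcl2l11 at 62.6 and 62.7 CPM (1.35, SE 0.063), with Bmf (1.09, SE 0.28) and Bbc3 (0.77, SE 0.16) also called higher. Both comparisons share the activated control libraries.

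In resting T cells TG raised Bmf (0.77, SE 0.13) and Bcl2l11 (0.16, SE 0.041) and lowered 4 of 7 tested BH3-only genes, where 34.1% of all genes rose and 35.2% fell, among them Bik (-1.08, SE 0.47, at 5 to 18 counts a library) and Bbc3 (-0.46, SE 0.12). In control melanoma it raised Bmf (1.30, SE 0.30) and Bbc3 (0.93, SE 0.16) and lowered Bcl2l11 (-0.62, SE 0.21), 3 calls of 5 tested where 71.8% of all genes were called. In the knockout melanoma Bbc3 (1.45, SE 0.19) and Bad (0.31, SE 0.096) rose and Bcl2l11 fell (-0.99, SE 0.20). Bcl2l11 thus differed in direction between the cell types, falling in melanoma from 5.97 and 6.13 to 3.74 and 4.09 CPM, and the test of that difference against resting T cells called it (-0.80, SE 0.19). Pmaip1 (NOXA) had 0 or 1 count in each melanoma library and 45.4 to 60.6 CPM in each T cell library.

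**Figure D5:**
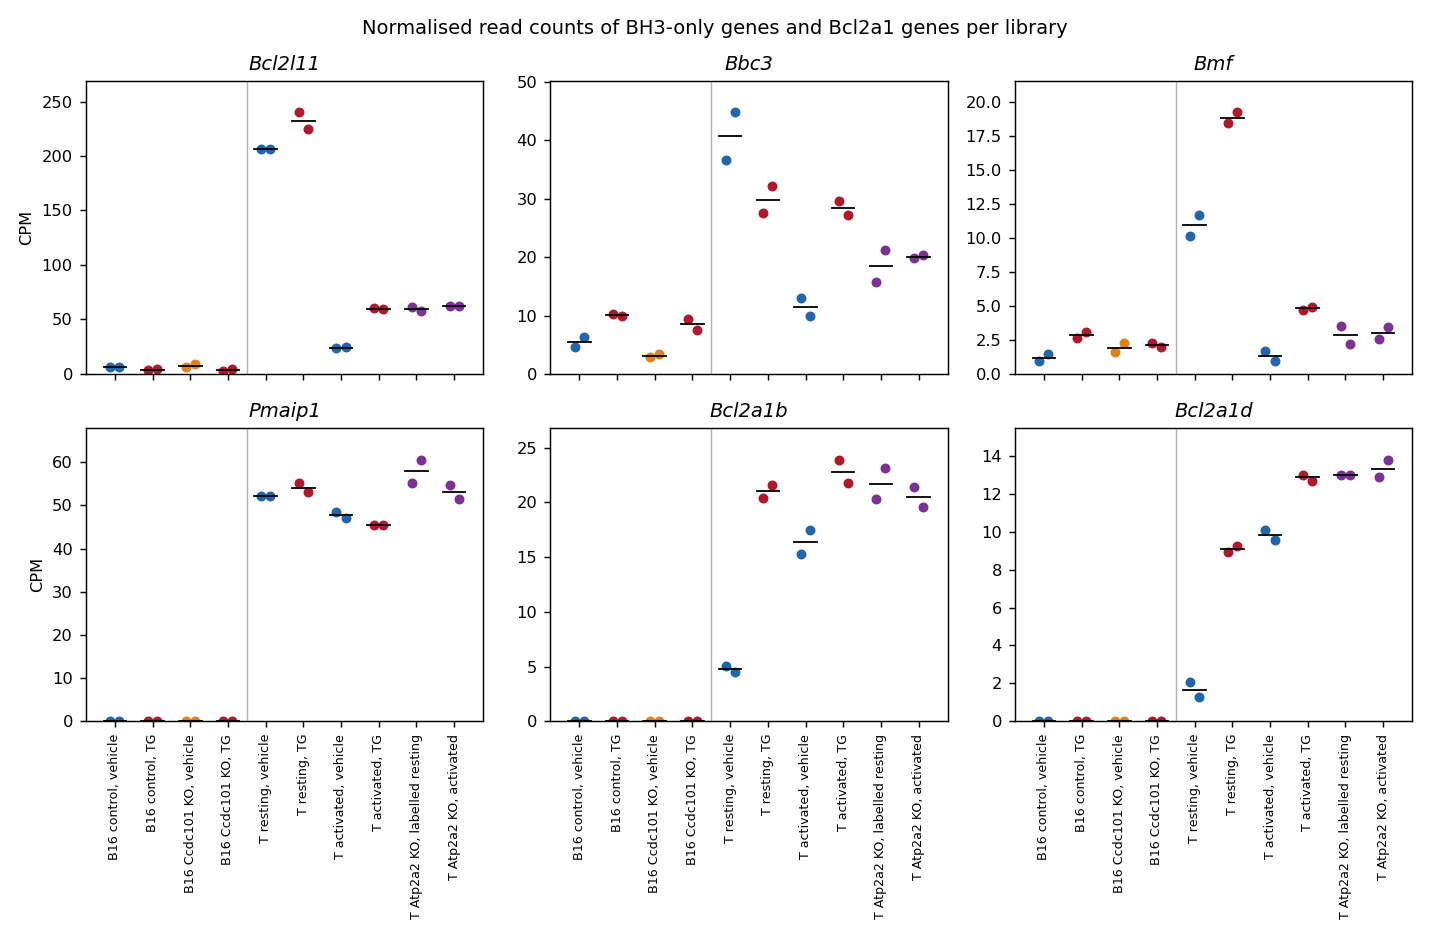
CPM (y axes, from 0) of 4 BH3-only genes and of Bcl2a1b and Bcl2a1d in the 10 groups (x axis); points are libraries, lines group means. Bcl2l11 drops from 206 CPM in resting to 24.2 CPM in activated T cells and stands at 59.4 to 62.7 CPM in activated cells with TG and in both Atp2a2 knockout groups.

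Among other BCL2 relatives, Bcl2a1b and Bcl2a1d encode survival proteins of blood cells. They are near-identical copies, so reads may be split between them and each value is uncertain. Bcl2a1b was 5.05 and 4.54 CPM in resting T cells, 20.4 and 21.6 CPM after TG (log2 change 2.11, SE 0.14) and 15.3 and 17.5 CPM after activation (1.81, SE 0.14). Bcl2a1d followed (2.40, SE 0.21, and 2.59, SE 0.20). Neither had a count in any of the 8 melanoma libraries. With TG in resting T cells 3 of 5 tested relatives rose and 1 fell, where 34.1% of all genes rose and 35.2% fell. In control melanoma, where 36.1% of all genes fell, both tested relatives fell, Bcl2l12 by 1.45 (SE 0.16) and Bcl2l13 by 0.22 (SE 0.042) on the log2 scale.

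Downstream of the pore, 12 genes of mitochondrial release and caspases were listed, and all were tested. With TG in control melanoma 3 rose and 7 fell, with a median log2 change of -0.41 beside 0.00 for all genes, of which 35.7% rose and 36.1% fell. Among those that fell was Aifm1, a mitochondrial flavoprotein (-0.87, SE 0.060). In activated T cells TG raised 4 and lowered 5 of the 12, beside 32.6% and 32.4% of all genes, with Aifm1 (-0.64, SE 0.060) and Htra2 (-0.54, SE 0.059) among the lower ones. In resting T cells 4 rose and 7 fell, beside 34.1% and 35.2% of all genes, among them Casp9, the initiator caspase of the apoptosome (-0.57, SE 0.099). Activation with vehicle raised 6 and lowered 5, beside 35.3% and 39.1% of all genes, among them Htra2 (1.68, SE 0.070) and Casp9 (-1.14, SE 0.10). In the activated knockout 3 rose and 3 fell, beside 17.5% and 19.6% of all genes, with Casp9 (0.41, SE 0.11) and Htra2 (-0.36, SE 0.056) the largest.

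Of 7 genes listed for the synthesis and degradation of MCL1, 6 were tested and Trim17 was filtered out. Usp9x, a deubiquitinase that removes degradation marks from MCL1, rose with TG in all 4 comparisons: by 0.72 (SE 0.043) and 0.59 (SE 0.044) in control and knockout melanoma, and by 0.64 (SE 0.040) and 0.36 (SE 0.039) in resting and activated T cells. Cdk9, a kinase needed for transcription elongation, fell in all 4, most in resting T cells (108 and 101 CPM with vehicle, 56.4 and 65.0 CPM with TG, -0.80, SE 0.058). The list had 4 genes higher and 2 lower with TG in resting T cells, where 69.2% of all genes were called. In control melanoma 3 were higher and 1 lower, where 71.8% of all genes were called. The higher ones include genes other than Usp9x that are not reported here by name. No direction of MCL1 turnover is read from these counts or from Usp9x alone. In the activated knockout the 6 log2 changes lay between -0.05 and 0.13, and 0 had an adjusted or unadjusted p under 0.05 with edgeR.

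Patterns over the 10 group means were compared among genes with a mean of at least 10 CPM. Genes without a symbol or with a gene-model symbol (Gm with digits, or ending in Rik) were left out. The genes most like each member were found by Pearson's r on log2 CPM centred within each cell type, over 9297 genes (9298 for Bok), as a description with no test. For Bcl2 they were Tcp11l2 (r = 0.981), Fam214a (0.968) and Myo6 (0.965), and for Bcl2l1 they were Tfrc (0.987), Pank3 (0.984) and Gatm (0.983). Those for Bak1 were Haus4 (0.993), Fam111a (0.989) and Rpa1 (0.988). For Mcl1 they were Sept1 (0.975), Myo9b (0.966) and Rptor (0.962), and for Bcl2l2 Meis3 (0.963), Srxn1 (0.960) and Ppp2r3c (0.955). Bax, with the smallest range, had the lowest values, with Dlgap4 (0.936), Fam32a (0.924) and Mir6236 (0.901), and the low-count Bok had Nemp1 (0.970), Epb41l2 (0.966) and D1Ertd622e (0.942). The groups share libraries, cell types and treatments, so these values carry no independent weight.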

How the data were processed

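RNA of 20 libraries was measured as gene counts. Per the submitters' processing notes the authors used the aligner STAR 2.6.0c, the build GRCm38 (mm10) and the counter HTSeq (its version, annotation, strand setting and filters are not given in the sources used here), and deposited raw counts per gene in 1 table of 46603 rows. Symbols came from GENCODE M21 for 46091 rows, and rows without one held 0.0759% of counts. Counts of melanoma (8 libraries, 12540 genes), T cells (12, 13432) and all libraries (20, 14824) were filtered by filterByExpr, scaled by TMM and fitted by edgeR 4.0.16 (quasi-likelihood, robust, R 4.3.3), with Benjamini-Hochberg adjustment over all genes of the fit. DESeq2 1.42.0, other scaling, other filters, a replicate block, other pools and leaving out each library were alternatives. The script was tested on simulated data. The lowest and highest totals were 9985311 and 17462770 counts; intervals on counts cover counting error only. Paired libraries differed beyond sampling noise in every group. Named were the 7 members, the targeted genes, the stress gene Ddit3 and 3 genes of most similar pattern per member. At most 3 called genes of largest change per list and comparison were also named. Some comparisons had a further called gene, chosen after its values were seen. Members and lists were chosen with earlier results of these data known. Lists of markers not described in the text (CD4 T, B, myeloid, NK, erythroid and fibroblast cells) summed to at most 2.27 CPM in T cells, and in melanoma to at most 1.71 CPM except the fibroblast genes (11.9 to 24.9 CPM); the resting T cell markers were 609 to 625 CPM in resting and 346 to 351 CPM in activated control cells. Some genes of the list of mitochondrial release and caspases are counted but not reported here by name. No protein sequences were used here.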

Additional observations from a re-analysis of the deposited data

Results flagged for a closer look

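Each of these values is a difference between the changes of a gene in 2 settings that passed edgeR's test of that difference. In melanoma the thapsigargin (TG) change was lower in the Ccdc101 knockout than in control cells for Bcl2 (-0.52 on the log2 scale) and Mcl1 (-0.18).

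Between activated and resting T cells the TG change differed by 0.67 for Bcl2, 0.26 for Bcl2l1, 0.27 for Bcl2l2, 0.33 for Mcl1, 0.22 for Bax, 0.49 for Bak1 and -3.56 for Bok. Bcl2 was the only called member in both states whose 2 changes had opposite signs.

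Between control melanoma and resting T cells the TG change differed by 1.48 for Bcl2, 1.00 for Bcl2l1, 0.61 for Bcl2l2, 0.27 for Mcl1, 0.19 for Bax and -6.17 for Bok, the last resting on 0 counts in TG-treated control melanoma. Bok passed the filter on low counts only through TG-treated resting T cells, which bears on both of its values. Between control melanoma and activated T cells it differed by 0.80 for Bcl2, 0.73 for Bcl2l1, 0.33 for Bcl2l2 and -0.54 for Bak1.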

How the results depend on the processing

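Over the alternatives the member changes mostly kept direction and call: 111 of 121 with DESeq2, 116 of 121 with RLE scaling, 113 of 121 without a filter, 106 of 108 with a filter of 5 CPM in 2 libraries, 110 of 112 with the compared groups alone, 91 of 93 with all 20 libraries and 546 of 592 with 1 library left out. The replicate numbers did not pair the libraries (correlations of -0.04 to 0.09 over 14 comparisons), and the replicate block kept all 121, for example 5 members called with TG in control melanoma. Leaving out the libraries labelled resting Atp2a2 knockout, an alternative chosen after seeing the data, kept 49 of 49.

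The counts of members called moved by over 1.5 times in 3 comparisons, and the cause was not tested. For the difference in TG change between melanoma genotypes, 2 members became 1 with DESeq2, 1 with RLE scaling and 1 to 2 with a library left out. For that between T cell states, 7 became 4 to 7 with a library left out. For the Atp2a2 knockout in activated cells, 4 became 2 with DESeq2 and 2 to 3 with a library left out.

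Signs turned only for values near 0 that were not called (a value of 0.00 was taken to have no sign, a rule set after seeing these values): Bcl2l1 for the melanoma difference, 0.03 to -0.04 without the knockout vehicle library 1 (range with a library left out -0.04 to 0.13); Bax for activation with TG, -0.03 to 0.03 and 0.02 without library 2 of the resting or activated TG cells (range -0.09 to 0.03); and, in the activated against the labelled resting knockout, Bcl2l1, -0.02 to 0.02 (range -0.07 to 0.02), and Bok, -0.29 to 0.23 (range -0.66 to 0.23), without library 1 of the activated or the labelled resting knockout.

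Over all genes DESeq2 called 1508 against 3218 for the knockout in melanoma with vehicle (37.2% against 48.2% of them higher). With TG it called 2126 against 3956 (49.2% against 52.5% higher, 64.4% with edgeR without a filter). For the genotype difference it called 671 against 1644 (66.6% against 54.6% higher, 70.5% with edgeR without a filter). It called 3156 against 4986 for the Atp2a2 knockout in activated T cells. For its labelled states 35 were called against 79, and 184 by edgeR without a filter. Depth limits Bok most, at 0 to 27 counts a library. Bcl2l2 came next, at 257 to 724 counts a library, and the part of depth in its lost calls was not tested.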
